A study of Mus musculus with 4 samples.

Results

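Germ cell, piRNA pathway, meiotic and 2-cell genes were examined in mouse embryonic stem (ES) cells that lack SOCS3 and in wildtype ES cells. The list held 45 genes, and each was represented by the probe set that carries its symbol alone and has the highest mean log2 value over the 4 arrays. Of the 45 genes, 42 had such a probe set among 18193 named genes on the array, and 33 passed a filter on dim values and were tested among 12732 genes. The other 9 with a probe set (Piwil4, Tdrd1, Tdrd9, Asz1, Figla, Sycp1, Sycp2, Spo11 and Tex101) lay below the filter, with intensities of 4.27 to 11.4 on every array. Fkbp6, Nanos3 and Zscan4c had no probe set with their symbol alone and were not analysed here. Total RNA was hybridised from 2 wildtype and 2 SOCS3-null samples, with the genotype and the replicate number taken from the submitters' labels. The labels give no clone, passage, culture condition or design of the null allele, and they do not tell whether the 2 samples of a genotype were grown separately. The p-values therefore rest on differences among 4 arrays that could be technical in origin.

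SOCS3 is an inhibitor of cytokine signalling that acts on JAK kinases downstream of the receptor for leukemia inhibitory factor. PIWI-interacting RNAs (piRNAs) are short RNAs that guide PIWI proteins to transposon transcripts in germ cells, where they direct cleavage of the transcripts and DNA methylation of the transposons. Their precursors are processed in granules between mitochondria by helicases, nucleases and Tudor-domain proteins, which bind methylated arginines of PIWI proteins. Meiosis uses its own cohesin subunits, the synaptonemal complex that joins homologous chromosomes, and enzymes that make and repair programmed DNA breaks. Many of these genes have CpG-rich promoters that are methylated or held silent by Polycomb-type complexes in other cells, and ES cells express a part of them without entering the germline. A small fraction of cultured ES cells passes through a state with transcripts of the 2-cell embryo.

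The targeted transcript was checked first. Socs3 intensities were 3024 and 1884 with the wildtype label and 19.3 and 12.9 with the null label. Where the null allele was cut is not given in the labels, so a probe set outside the cut would not test them. All 12 ES cell markers lay above the filter level in both genotypes, and their summed intensity was 86251 and 87224 in wildtype, against 73775 and 69350 without SOCS3. Of these 12, 0 rose and 3 fell in the limma fit: Sox2 (change -1.01), Fgf4 (-1.29) and Dppa4 (-0.64). The called share of these markers was 25%, where 22.7% of all genes tested were called, 13.1% higher and 9.55% lower. Zfp42 differed by -1.70 without passing (adjusted p = 0.0691), while Pou5f1 and Dppa5a, which make up much of the sum, differed by -0.00672 and -0.03. Of 14 endoderm markers 13 were tested and all 13 were higher in SOCS3-null samples, with summed intensities of 2965 and 3384 against 53536 and 55182, and Afp was below the filter level on every array. Of the 13, Gata4, Sox17 and Foxa2 passed the filter only through the SOCS3-null arrays, where they are high. Of 12 fibroblast feeder markers 11 were tested and limma called 0 (sums of 7556 and 10020 in wildtype, 10401 and 6413 in SOCS3-null), and Lum stayed below the filter level. Of 10 markers of the somatic gonad, the tissue that surrounds germ cells, 6 were tested and only Gata4, which is also in the endoderm list, was called, while Amh, Inha, Cyp17a1 and Fshr stayed below the filter level. In bulk RNA, fewer cells of a type and less RNA per cell cannot be told apart. The endoderm markers and the ES cell markers Sox2, Fgf4 and Dppa4 moved with the genotype beside each result below, and their part in those results was not tested.

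Of the 33 tested genes 7 rose and 4 fell in SOCS3-null cells, and 22 did not pass the test (limma, Benjamini-Hochberg adjusted p under 0.05 over all genes tested). The background was 22.7% of all genes called, 13.1% higher and 9.55% lower, beside 33.3% of the tested members called, 21.2% higher and 12.1% lower. The list was chosen with earlier results of these data known, so the higher share of members is a description and not a test. Counts by role and for the other lists below are to be read beside the same background. The genes that rose were Pramel7, Rhox5, Usp17la, Tex15, Tdrd7, Mov10l1 and Tdrkh, and those that fell were Tdrd12, Stra8, Prdm1 and Tdrd5. Of those that fell, Prdm1 and Tdrd5 passed the filter only through the wildtype arrays. A change of at least 1 on the log2 scale together with a call was seen for 7 of the 33, against 9.29% of all genes. Of these 7, 4 rose (background 5.89%) and 3 fell (background 3.40%). The median change of the tested members was -0.02, beside -0.00496 for all genes tested. The 2 wildtype and 2 SOCS3-null values did not overlap for 25 of the 33, 14 higher and 11 lower, where 65.8% of all genes tested did not overlap, 32.3% higher and 33.6% lower. With any 1 array left out limma called 0 of 12717 to 12743 genes at an adjusted p under 0.05, members included. At an unadjusted p under 0.05 there were 2926 to 4731. Of the members, 6 to 11 were then higher and 3 to 6 lower at that unadjusted level, and the 11 called members kept their direction with each array left out. With a pseudocount of 64 in place of 16, Tdrd5, Tdrkh, Mov10l1 and Stra8 were no longer called, and without the filter Tdrd7, Mov10l1 and Stra8 were not.

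**Figure D1:**
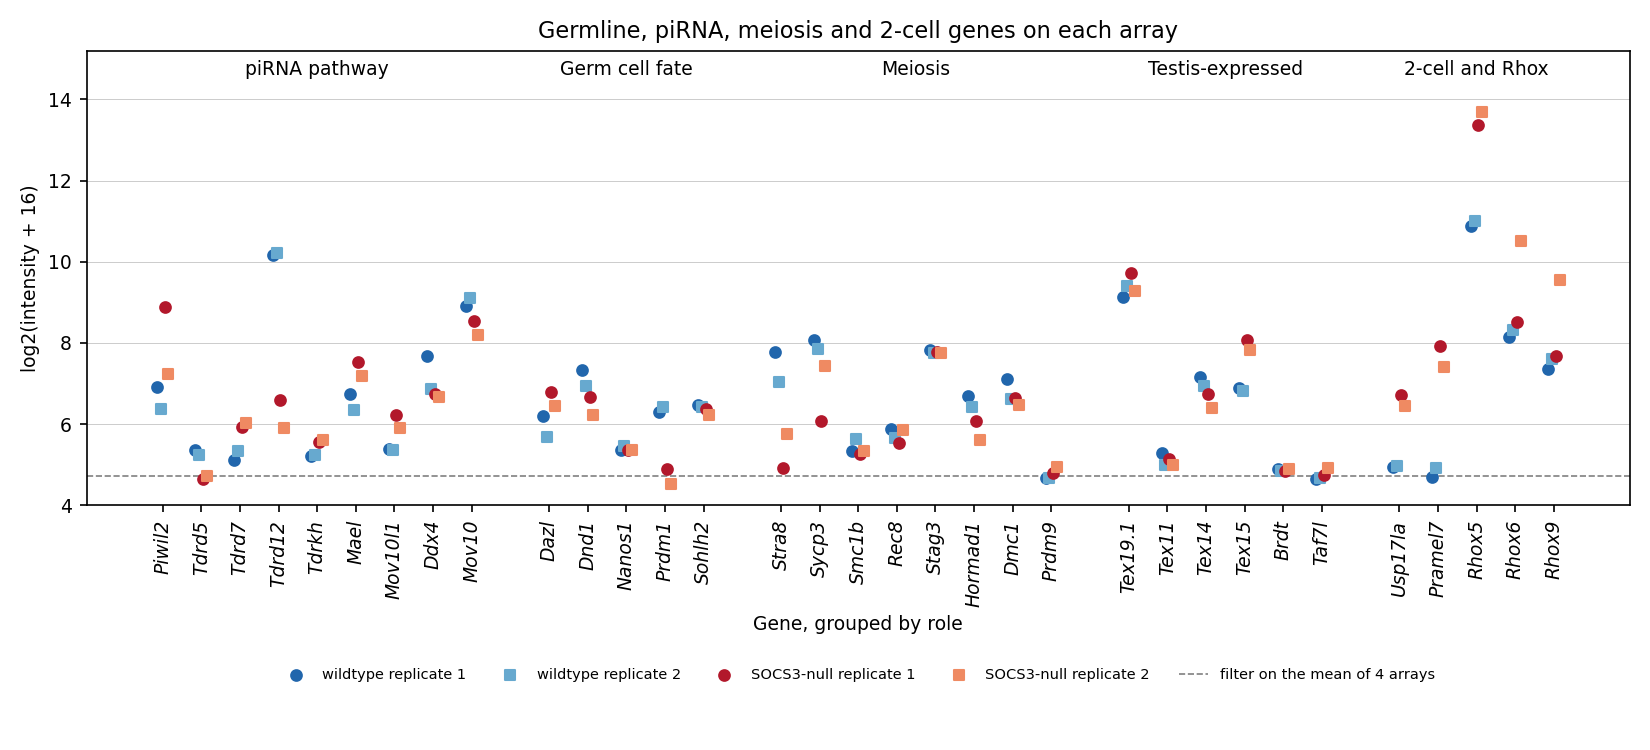
Values of the 33 tested genes as log2(intensity + 16) on each of the 4 arrays, grouped by role, with blue shades for wildtype, red and orange for SOCS3-null, circles for replicate 1, squares for replicate 2 and a dashed line at the filter level of 4.72. Tdrd12, Stra8 and Prdm1 are lower on both SOCS3-null arrays, Pramel7, Rhox5 and Usp17la are higher on both, and the SOCS3-null arrays of Rhox6, Rhox9, Piwil2 and Sycp3 lie far apart.

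The promoters of the genes that changed most are shown first, followed by those of Sycp3 and Mael, which did not pass the test and carry both motifs searched. Promoter sequences are those of RefSeq on assembly GRCm38.p6, from 250 bases before the start of the gene to 50 bases after it, on the strand of the gene. Capitals mark matches to the E-box CACGTG, which MYC, MAX and MGA proteins recognise, and to GCGGGA or its reverse complement TCCCGC, the core of sites of E2F factors. The first 4 have no capitals because neither motif occurs in these windows.
Tdrd12, chr7:35537666-35537965, minus strand: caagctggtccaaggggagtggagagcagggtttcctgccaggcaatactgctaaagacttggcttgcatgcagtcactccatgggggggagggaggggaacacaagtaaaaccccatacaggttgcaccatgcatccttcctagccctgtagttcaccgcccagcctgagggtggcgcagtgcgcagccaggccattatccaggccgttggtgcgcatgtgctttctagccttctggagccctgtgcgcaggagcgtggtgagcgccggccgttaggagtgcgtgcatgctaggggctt
Stra8, chr6:34920698-34920997, plus strand: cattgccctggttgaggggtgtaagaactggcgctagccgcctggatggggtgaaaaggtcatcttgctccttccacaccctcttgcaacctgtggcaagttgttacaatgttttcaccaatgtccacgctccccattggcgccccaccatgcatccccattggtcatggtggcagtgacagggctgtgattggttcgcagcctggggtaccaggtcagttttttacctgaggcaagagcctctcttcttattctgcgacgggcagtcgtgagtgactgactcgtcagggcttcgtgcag
Rhox5, chrX:37754358-37754657, plus strand: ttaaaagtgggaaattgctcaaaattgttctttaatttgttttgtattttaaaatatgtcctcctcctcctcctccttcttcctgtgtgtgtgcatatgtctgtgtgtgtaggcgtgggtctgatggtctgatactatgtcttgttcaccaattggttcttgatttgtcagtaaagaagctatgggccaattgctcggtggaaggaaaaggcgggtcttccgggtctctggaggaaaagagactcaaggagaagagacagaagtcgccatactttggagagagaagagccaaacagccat
Pramel7, chr2:87492369-87492668, minus strand: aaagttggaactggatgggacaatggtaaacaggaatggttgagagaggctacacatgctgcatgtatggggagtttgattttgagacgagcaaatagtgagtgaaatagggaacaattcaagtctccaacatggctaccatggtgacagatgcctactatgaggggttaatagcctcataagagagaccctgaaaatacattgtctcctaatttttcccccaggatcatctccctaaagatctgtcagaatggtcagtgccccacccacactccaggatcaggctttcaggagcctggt
Sycp3, chr10:88459337-88459636, plus strand: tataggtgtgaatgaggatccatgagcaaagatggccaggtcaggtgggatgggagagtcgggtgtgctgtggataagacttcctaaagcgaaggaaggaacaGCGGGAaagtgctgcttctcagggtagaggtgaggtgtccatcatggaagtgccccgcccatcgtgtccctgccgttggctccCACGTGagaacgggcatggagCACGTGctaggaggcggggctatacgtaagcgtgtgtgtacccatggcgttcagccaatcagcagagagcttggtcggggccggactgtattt
Mael, chr1:166238695-166238994, minus strand: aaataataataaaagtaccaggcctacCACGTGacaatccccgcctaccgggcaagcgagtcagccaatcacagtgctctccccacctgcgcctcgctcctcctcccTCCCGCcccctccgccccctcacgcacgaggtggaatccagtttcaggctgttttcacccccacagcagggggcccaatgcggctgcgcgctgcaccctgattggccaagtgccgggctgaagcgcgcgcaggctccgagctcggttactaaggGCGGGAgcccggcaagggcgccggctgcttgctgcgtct

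The piRNA pathway genes split. Of 14 listed, 9 were tested, and 3 rose (Tdrd7, Mov10l1 and Tdrkh), 2 fell (Tdrd12 and Tdrd5) and 4 did not pass, with a median change of 0.36. For all 9 the wildtype and SOCS3-null values did not overlap, 5 being higher and 4 lower in SOCS3-null samples. Over all genes tested 22.7% were called, and 65.8% did not overlap, 32.3% higher and 33.6% lower.

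Tdrd12, a Tudor-domain protein with a helicase domain that is needed for the production of secondary piRNAs, had intensities of 1124 and 1182 in wildtype samples, against 80.1 and 43.5 in SOCS3-null samples. The wildtype values lay far above the 75th percentile of the arrays (114 to 119) and close to each other, and both SOCS3-null values lay below it. The log2 change was -3.95 (SE 0.26, limma adjusted p = 0.00702), or 15.5-fold on the scale of intensity + 16, and it ran from -4.30 to -3.60 with any 1 array left out. It was the largest change of the list in either direction. Tdrd5, another Tudor-domain protein of the granules, changed at a dim level, from 25.2 and 21.6 to 9.19 and 10.6. Its change of -0.61 (SE 0.09, limma adjusted p = 0.0245) depends on the pseudocount, with -1.17 at 1 and -0.24 at 64, and it passed the filter only through the wildtype arrays.

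The Tudor-domain genes Tdrd7 and Tdrkh went the other way. Tdrd7, which acts in the remodelling of RNA granules in germ cells and the lens, was at 18.6 and 24.6 in wildtype samples, against 45.1 and 49.2 in SOCS3-null samples, a change of 0.75 (SE 0.12, limma adjusted p = 0.0250). Its dimmer probe set lay below the filter at 5.70 to 5.97 on all arrays and showed no rise (change -0.01). Tdrkh, a mitochondrial protein that takes part in trimming piRNA ends, rose by 0.36 (SE 0.08, adjusted p = 0.0488), from 21.0 and 21.6 to 30.9 and 33.1. That call lies at the threshold, and with each probe set tested on its own over 27022 probe sets its adjusted p was 0.0528 (range over the alternatives 0.0315 to 0.219). Mov10l1, the RNA helicase that hands precursors to primary piRNA processing, rose from 25.5 and 25.2 to 58.1 and 44.0, a change of 0.69 (SE 0.13, adjusted p = 0.0378). Its widely expressed relative Mov10, an RNA helicase that restricts retroelements, was at 461 and 534 against 357 and 279, and its change of -0.63 did not pass (adjusted p = 0.0671). The 2 helicases thus had changes of opposite sign, of which only that of Mov10l1 passed the test, and the difference between them was not tested.

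Among the PIWI proteins and their partners no gene passed. Piwil2, the cytoplasmic PIWI protein that binds the first piRNAs of fetal germ cells, was at 105 and 67.1 in wildtype samples, against 453 and 134 in SOCS3-null samples. Both SOCS3-null values lay above both wildtype values, but they differed 3.38-fold from each other, and the change of 1.40 (SE 0.63) had an adjusted p of 0.196. Mael, a partner of the PIWI proteins in transposon silencing, was at 90.9 and 65.95 against 170 and 129, a change of 0.81 (SE 0.20, limma adjusted p = 0.0637). Ddx4, the vasa helicase that marks germ cells, was at 188 and 101 against 90.5 and 86.4 (adjusted p = 0.255). The nuclear PIWI protein Piwil4, the Tudor-domain genes Tdrd1 and Tdrd9, and Asz1, which anchors the granules at mitochondria, were below the filter on the mean of the 4 arrays. Of these, Piwil4 had wildtype values of 10.58 and 11.4, just above the filter level of 10.4, and SOCS3-null values of 7.88 and 8.57.

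A further 14 piRNA pathway genes outside the list were counted, of which 11 were tested, and limma called 0 of them, with changes from -0.41 to 0.72 and a median of -0.21. Among them, Gtsf1, a cofactor of PIWI cleavage, was at 45.5 and 33.9 against 95.4 and 58.5 (limma adjusted p = 0.121). Pld6, a mitochondrial nuclease, was at 53.5 and 44.4 against 48.9 and 21.7 (adjusted p = 0.414). Rnf17 was at 660 and 637 against 672 and 620 (adjusted p = 0.973). The others tested were Gpat2, Exd1, Tdrd3, Prmt5, Ddx39b, Hsp90aa1, Mybl1 and Kif17, and the median depends on this choice of genes. Piwil1, the PIWI protein of later spermatogenesis, was below the filter.

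**Figure D2:**
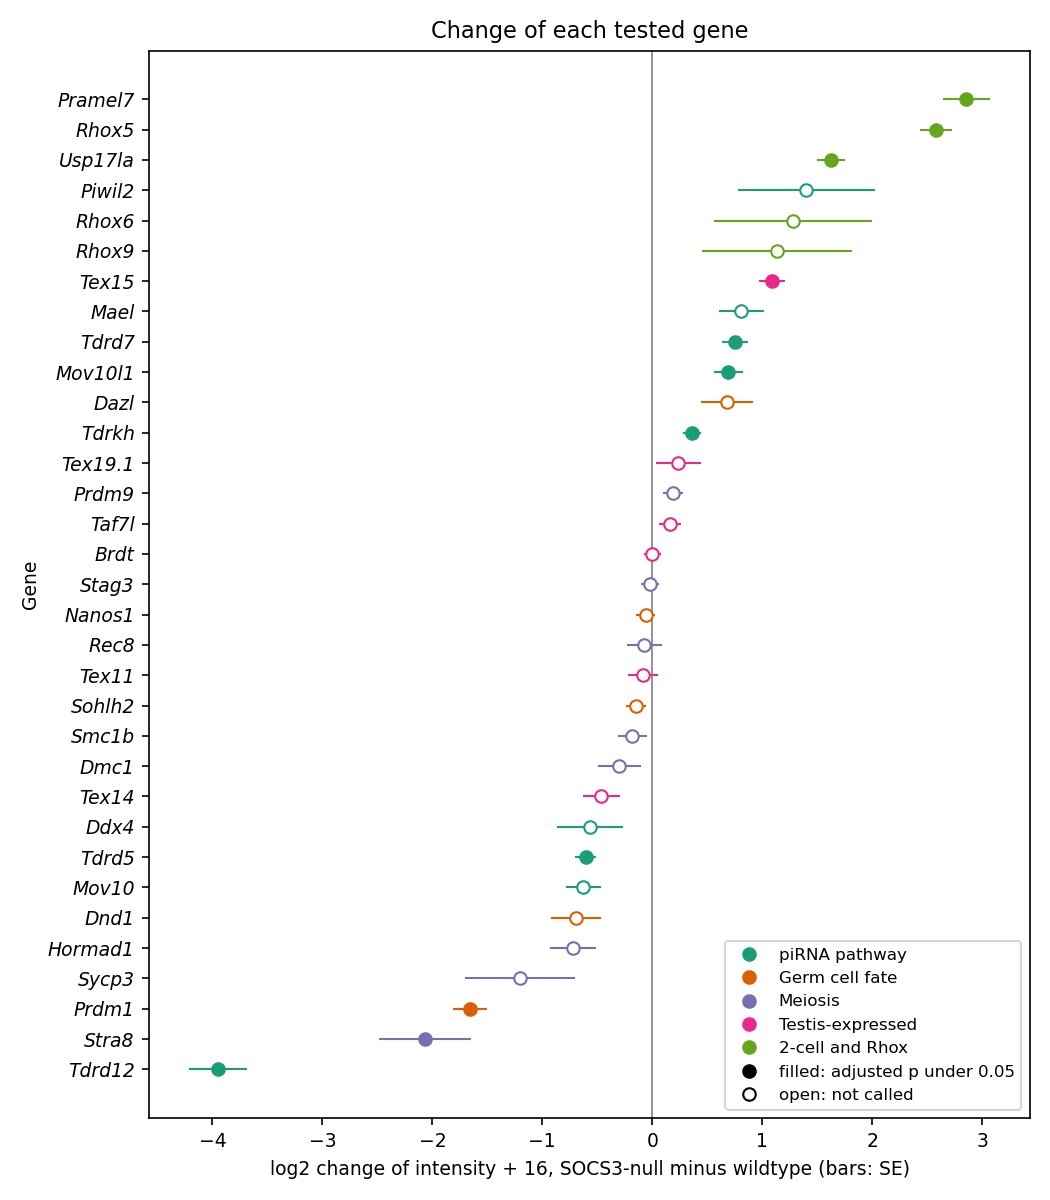
Change of each of the 33 tested genes, SOCS3-null minus wildtype, as the log2 difference of intensity + 16 with its SE, coloured by role, with filled points for an adjusted p under 0.05. The 7 filled points on the right run from Tdrkh (0.36) to Pramel7 (2.86), the 4 on the left from Tdrd5 (-0.61) to Tdrd12 (-3.95), and Piwil2, Rhox6 and Rhox9 have large changes with wide SE.

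Of 11 meiotic genes 8 were tested, and 0 rose, 1 fell and 7 did not pass in the limma fit, with a median of -0.24. Stra8, which germ cells switch on in answer to retinoic acid when they enter meiosis, had intensities of 204 and 115 in wildtype samples, against 14.1 and 38.5 in SOCS3-null samples. The groups did not overlap, although each pair of arrays was itself spread. The change was -2.07 (SE 0.42, adjusted p = 0.0414), with an adjusted p of 0.0565 when each probe set was tested on its own (range over the alternatives 0.00874 to 0.255). Sycp3, a lateral element of the synaptonemal complex, was at 255 and 215 in wildtype samples, against 52.0 and 158 in SOCS3-null samples, a change of -1.20 (SE 0.50, adjusted p = 0.170). Hormad1, which monitors the pairing of chromosomes, was at 87.8 and 70.3 against 52.0 and 32.6, a change of -0.72 (SE 0.21, adjusted p = 0.0901). All of these had higher values on both wildtype arrays, while the remaining tested meiotic genes differed less.

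The meiotic cohesin subunits showed changes near 0. Stag3 was at 210 and 199 in wildtype samples, against 204 and 199 in SOCS3-null samples (change -0.02, SE 0.08, adjusted p = 0.894). Rec8, the cleavable cohesin subunit, was at 42.4 and 34.6 against 30.1 and 41.9 (adjusted p = 0.784), and Smc1b at 24.2 and 33.2 against 22.3 and 24.2 (adjusted p = 0.390). The values of these subunits overlapped between genotypes. Stag3 had the identical value of 199.039 on replicate 2 of each genotype. Smc1b had 24.187 on both wildtype replicate 1 and SOCS3-null replicate 2. Dmc1, the recombinase of meiotic strand exchange, was at 122 and 82.7 against 84.4 and 73.4 (adjusted p = 0.348). Prdm9, the methyltransferase that places recombination hotspots, had 9.61 and 9.56 against 11.8 and 14.55 and passed the filter only through the SOCS3-null arrays (adjusted p = 0.219). Spo11, which cuts the DNA to start recombination, and the synaptonemal genes Sycp1 and Sycp2 were below the filter.

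Of 27 other meiotic genes 17 were tested, of which 2 rose and 1 fell, with a median of -0.24. Mei4, a partner of SPO11 in making breaks, fell from 71.8 and 67.6 to 13.7 and 16.5 (change -1.46, SE 0.09, limma adjusted p = 0.00661). Tex12, a part of the central element of the synaptonemal complex, rose from 7.38 and 7.70 to 35.2 and 31.1 (change 1.06, SE 0.09, adjusted p = 0.00871). It passed the filter only through the SOCS3-null arrays. Hormad2, the paralog of Hormad1, rose from 23.8 and 24.1 to 62.7 and 48.9 (change 0.84, SE 0.12, adjusted p = 0.0231). Called meiotic genes thus lay on both sides of 0.

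Of 7 genes of germ cell fate 5 were tested, 1 fell and 4 did not pass, with a median of -0.15. Prdm1, which encodes BLIMP1, the repressor that sets aside primordial germ cells in the epiblast, had 62.8 and 69.1 in wildtype samples, against 13.5 and 6.92 in SOCS3-null samples. Both SOCS3-null values lay below the array medians of 15.74 to 15.995, so the change of -1.65 (SE 0.16, limma adjusted p = 0.0102) ran from -2.64 at a pseudocount of 1 to -0.81 at 64, and the gene passed the filter only through the wildtype arrays. Dazl, an RNA-binding protein that licenses germ cells for meiosis, was at 57.0 and 35.4 against 95.2 and 70.5 (change 0.68, adjusted p = 0.123), and its dimmer probe set differed by 0.45 (adjusted p = 0.0730 over probe sets). Dnd1, which protects germ cell mRNAs from microRNAs, was at 146 and 106 against 85.5 and 58.3 (change -0.69, adjusted p = 0.114). The translational regulator Nanos1 and the transcription factor Sohlh2 differed by -0.06 and -0.15, with adjusted p of 0.677 and 0.319, and the oocyte factor Figla was below the filter. The dimmer probe set of Nanos1 differed by 0.04.

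Of 20 other germ cell genes 9 were tested, 4 fell and 0 rose (limma), with a median of -0.97. Over all genes tested 9.55% were called lower. Whether these falls go with those of the ES cell markers was not tested. Those that fell were Prdm14 from 152 and 154 to 42.4 and 44.6, Elavl2 from 693 and 557 to 146 and 146, Dppa3 from 1076 and 1075 to 73.2 and 167, and Tfap2c from 955 and 1199 to 468 and 506. Prdm14 and Tfap2c act with Prdm1 in the specification of primordial germ cells, and Dppa3 (Stella) marks these cells and the oocyte. The changes were -1.51, -1.97, -3.10 and -1.11 in that order.

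Of 7 genes named for expression in the testis or acting there, 6 were tested and 1 rose. Tex15, which takes part in recombination and in silencing of transposons with the nuclear PIWI protein, rose from 103 and 97.2 to 253 and 209 (change 1.09, SE 0.12, limma adjusted p = 0.0133), with a narrow range of 0.96 to 1.22 when any 1 array was left out. Tex19.1, which restrains retrotransposons in germ cells and placenta, was at 541 and 665 against 835 and 604, and the groups overlapped (adjusted p = 0.468). Tex14, a component of the bridges between germ cells, was at 126 and 106 against 91.9 and 68.4 (adjusted p = 0.133). The X-linked genes Tex11, a crossover factor, and Taf7l, a paralog of a TFIID subunit, and the bromodomain gene Brdt were dim and differed by -0.08, 0.16 and 0.00089, with adjusted p from 0.324 to 0.996. Taf7l passed the filter only through the SOCS3-null arrays. Tex101, a surface glycoprotein of germ cells, was below the filter.

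Of 6 listed 2-cell and Rhox genes, 5 were tested, 3 rose, 0 fell (limma) and 2 did not pass, and all 5 had both SOCS3-null values above both wildtype values. Over all genes tested the shares were 13.1% called higher and 32.3% higher without overlap. Their median change was 1.63. Rhox5, an X-linked homeobox gene known from Sertoli cells and from the extraembryonic endoderm, was at 1861 and 2055 in wildtype samples, against 10549 and 13187 in SOCS3-null samples. The change was 2.58 (SE 0.15, limma adjusted p = 0.00571), or 5.99-fold on the scale of intensity + 16, with 2.59 and 2.55 at pseudocounts of 1 and 64. Being bright in both genotypes, Rhox5 had the change that moved least with the pseudocount among the called members that changed by at least 1.

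Pramel7, a leucine-rich repeat protein of the inner cell mass and a known target of LIF and STAT3 in ES cells, went from 9.73 and 14.3 to 225 and 154. The change was 2.86 (SE 0.21, limma adjusted p = 0.00773), and because the wildtype values lay below the array medians it ran from 1.72 at a pseudocount of 64 to 3.87 at 1. Its dimmer probe set rose as well, by 1.36 (adjusted p = 0.0335 over probe sets). Usp17la, a deubiquitinating enzyme of a family with many near-identical copies, was at 14.8 and 15.1 against 89.1 and 70.7, a change of 1.63 (SE 0.12, adjusted p = 0.00796) that ran from 0.86 to 2.33 over the same pseudocounts. Copies of this family may share its probe set. Of 14 other genes listed for the 2-cell state 9 had no probe set with their symbol alone, and Zfp352, Tcstv1 and Tcstv3 were below the filter. Only Eif1ad and Pramel6 were tested, and limma called neither (adjusted p of 0.461 and 0.404). Eif1ad was bright in both genotypes (902 and 947 against 853 and 878), and these 2 genes cannot show whether 2-cell transcripts changed.

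Rhox6 and Rhox9 are homeobox genes of the same X-linked cluster as Rhox5. In the order of genes in RefSeq, 1 entry lies between Rhox5 and Rhox6 and 3 lie between Rhox6 and Rhox9. Rhox6 was at 266 and 302 in wildtype samples, against 350 and 1435 in SOCS3-null samples, and Rhox9 was at 147 and 177 against 187 and 732. In both genes SOCS3-null replicate 1 lay just above wildtype and replicate 2 stood far above it, 4.10-fold and 3.91-fold above replicate 1. The changes of 1.28 (SE 0.72) and 1.14 (SE 0.68) had limma adjusted p of 0.282 and 0.312. Without SOCS3-null replicate 2 they were smallest, 0.29 and 0.20. The SOCS3-null values of Rhox5 differed 1.25-fold from each other.

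The 2 SOCS3-null arrays were at least 1 apart on the log2 scale for 4 of 33 tested members (12.1%), against 1.58% of all genes tested, and the 2 wildtype arrays for 0 of 33, against 0.055%. Of the 4, Rhox6, Rhox9 and Sycp3, were higher on replicate 2, and Piwil2 was higher on replicate 1. Stra8 was also higher on replicate 2 (by 0.86), and Tdrd12 on replicate 1 (by 0.69 in absolute size). The median absolute difference was 0.32 between SOCS3-null arrays and 0.21 between wildtype arrays for the members, against 0.16 and 0.11 for all genes tested. Ccnb1ip1, an E3 ligase of meiotic crossover in the list of other meiotic genes, had 65.0 and 38.7 in wildtype samples, against 40.2 and 482 in SOCS3-null samples (limma adjusted p = 0.464), with the same order of the SOCS3-null arrays as Rhox6. Wide gaps between the SOCS3-null arrays were not limited to germline genes. Replicate 2 minus replicate 1 was -1.21 for the ES cell marker Zfp42 and -1.05 for the feeder marker Col3a1. The same difference was 1.03 for Dppa3, which is in the list of other germ cell genes.

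**Figure D3:**
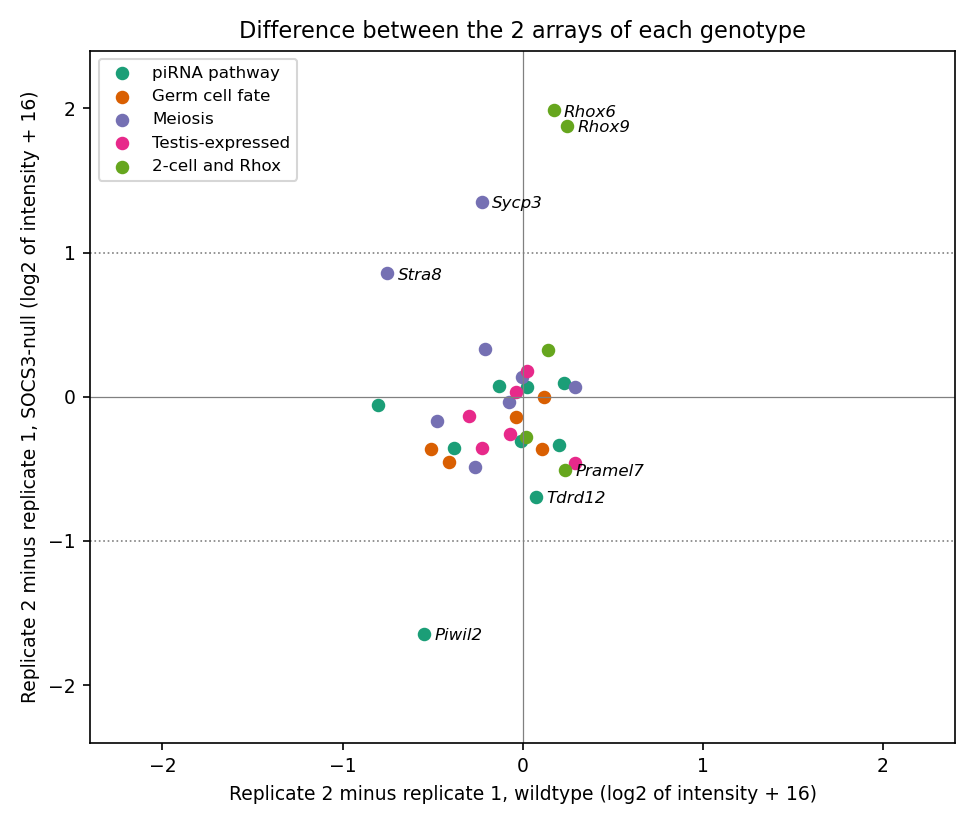
Replicate 2 minus replicate 1 on the log2 scale of intensity + 16 for each of the 33 tested genes, with wildtype on the x axis and SOCS3-null on the y axis and dotted lines at -1 and 1. Rhox6, Rhox9 and Sycp3 lie above the upper line and Piwil2 below the lower one, while no gene reaches 1 in either direction along the wildtype axis.

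Transcripts of the proteins that hold germline genes silent were compared from a list of 20. Of 19 tested, 0 rose and 4 fell in the limma fit, with a median of -0.20. The called share was 21.1%, against 22.7% of all genes tested, of which 9.55% were called lower. Dnmt3a, a DNA methyltransferase, went from 709 and 688 to 148 and 206 (change -1.91, SE 0.17, adjusted p = 0.00985), and Mga, the partner of MAX in a Polycomb-type complex at germline promoters, from 932 and 790 to 372 and 474 (change -1.003, SE 0.16, adjusted p = 0.0280). The histone demethylase Kdm1a fell by 0.68 and the histone methyltransferase Ehmt1 fell by 0.38. Genes of the same complexes that did not pass included E2f6 (0.30), Max (-0.25), L3mbtl2 (-0.04) and Pcgf6 (-0.66, limma adjusted p = 0.0527). Dnmt1 differed by 0.03, Ehmt2 by 0.14 and Setdb1 by -0.13, and none of these passed. Dnmt3b, brighter than Dnmt3a, did not pass either, at 3766 and 3766 against 3643 and 4739 (change 0.14).

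Promoter windows were found for 38 of the 45 members, 48 windows in all because some genes have several starts. The member windows were rich in CpG, with a median of 18 CpG per 300 bases against 7 over 32851 windows of all genes. A CACGTG E-box was present for 12 of 38 members (31.6%), against 8.09% of 27025 genes, and GCGGGA or TCCCGC for 13 (34.2%), against 22%. The E-box itself holds a CpG, and among windows with at least 15 CpG it was found in 14 of 31 member windows (45.2%) against 11.3% of all, whereas GCGGGA was found in 45.2% against 45.4%. Overlapping windows of the same gene are counted separately in these shares. Meiotic genes held both motifs together in 4 of 10 cases (Hormad1, Stag3, Sycp1 and Sycp3), against 2.65% of all genes. The windows of these 4 held 15 to 30 CpG, and the share with both motifs was not compared at a matched number of CpG. In Sycp3 the E-boxes begin 64 and 43 bases before the start, and in Ddx4 the E-box begins 29 bases before it.

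Of the 10 called members with a window, 1 (Mov10l1) held the E-box and 1 (Tdrd5) held GCGGGA, while of 17 tested members that were not called 7 held the E-box and 11 held GCGGGA. The windows of Tdrd12, Stra8, Rhox5 and Pramel7 printed above held neither motif, with 11, 10, 5 and 1 CpG. The windows of called members were also poorer in CpG, with a median of 11 and 46.2% of windows with at least 15 CpG, against a median of 19 and 85% for tested members that were not called. Of 8 members below the filter 3 held the E-box. A match to these letters is a description of the sequence and not a binding site, and these differences were not tested.

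**Figure D4:**
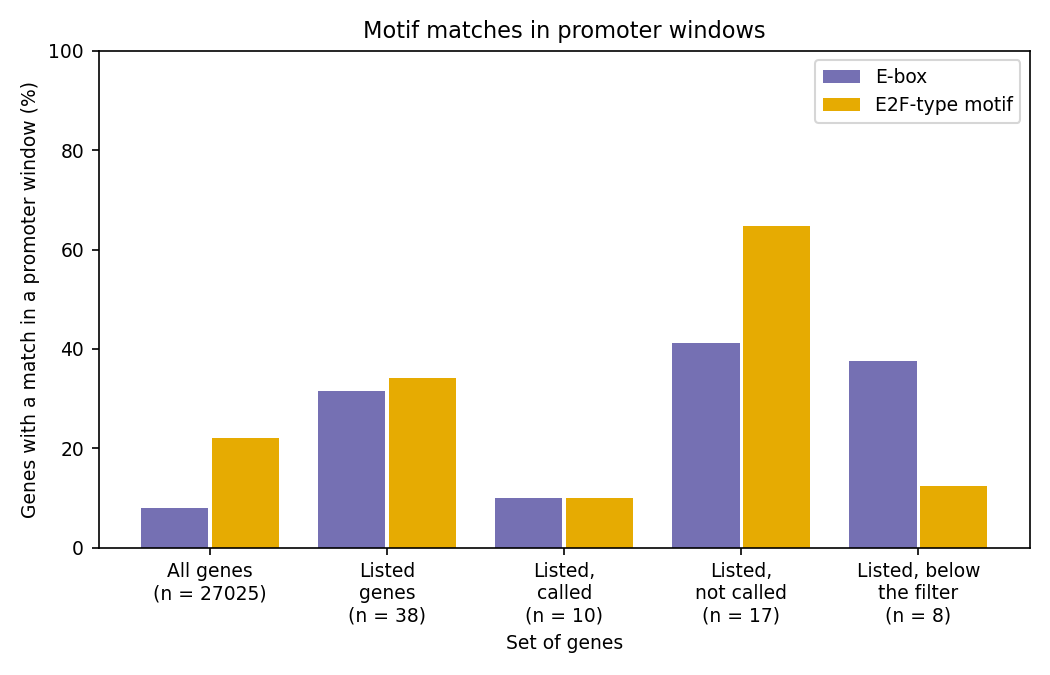
Share of genes, in percent, with at least 1 match to the E-box or to the E2F-type motif in a promoter window, for all genes and for the listed genes in all and by result of the test. The E-box was found in 8.09% of all genes, 31.6% of the listed genes, 10% of those called, 41.2% of those tested and not called and 37.5% of those below the filter.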

How the data were processed

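The 4 arrays were compared, 2 wildtype and 2 SOCS3-null, with groups from the submitters' labels. For each of 45101 probe sets the authors deposited a linear intensity. How these were summarised and normalized is not given in the sources used here. Array medians were 15.74 to 15.995, so values were not normalized again, and a change in total RNA could not be seen in them. Some values are identical between arrays (for 5 of the 33 tested members and 11.6% of all genes tested), which lowers the spread there.

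The 64 control probe sets were left out. Symbols came from the platform annotation, where 34945 probe sets have 1 symbol, 932 several and 9160 none. Probe sets were tested when their mean log2(intensity + 16) reached the 40th percentile (4.72). limma 3.58.1 in R 4.3.3 was fitted to all 12732 genes with genotype as the only term. Changes are SOCS3-null minus wildtype on that log2 scale and understate those of dim genes. The procedure was tested on simulated data with independent noise at the variances fitted here and no filter. There, 85.5% of planted log2 changes of 1 were found and 4.80% of calls were false. Because that noise was independent, the simulation cannot tell whether the replicates are only technical. All 45 members are accounted for; called members and the brightest have every array's value, as do at most 4 called genes of each other list. Members, lists and motifs were chosen with earlier results of these data known. Alternatives were other pseudocounts (1 and 64), normalizations, filters, an eBayes trend, the mean of probe sets, the replicate block and leaving out each array; tests of single probe sets and a crossed block were added after seeing the data. Promoters came from RefSeq (GRCm38.p6), and figures were drawn with matplotlib 3.10.9.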

Additional observations from a re-analysis of the deposited data

How the results depend on the processing

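The 11 called members kept their direction under each alternative in which they were tested. With a pseudocount of 64, 2 members fell and 5 rose. Without the filter 1631 genes, 5 higher and 3 lower members were called. With the replicate number as a replicate block 1914 genes were called, with 7 members higher and 4 lower, but not the same ones. The block lost Tdrd5 (adjusted p = 0.0620), Tdrkh (0.116), Mov10l1 (0.0594) and Stra8 (0.0722), and it gained Mael (0.0338), Dazl (0.0476), Dnd1 (0.0420) and Hormad1 (0.0485). Numbers were not taken as pairing the samples, because replicate differences of the genotypes correlated at -0.12 across 12732 genes and nothing in the labels pairs them. With the crossed block 2817 genes, 6 higher and 5 lower members were called. With each array left out in turn, 0 to 0 genes, 0 to 0 higher and 0 to 0 lower members were called by limma at the adjusted threshold, with 2926 to 4731 genes at an unadjusted p under 0.05. Outside the leave-one-out fits the called members kept their call in 103 of 118 cases. Among uncalled members, direction changed with 1 array left out for Rec8 (-0.239 to 0.0921), Stag3 (-0.0568 to 0.0177), Tex11 (-0.231 to 0.0653) and Brdt (-0.0168 to 0.0186). The cause was not tested, beyond the smaller number of arrays in these fits. With a filter at the 60th percentile 24 members were tested, 7 higher and 4 lower, with Mael, Mov10 and Hormad1 newly called and Tdrd5, Prdm1 and Tdrkh no longer tested. Signal near background in one or both genotypes limits the 9 members below the filter and the size of the change of 8 called ones. Between pseudocounts of 64 and 1 the changes ran from 1.72 to 3.87 for Pramel7, 0.86 to 2.33 for Usp17la, 0.38 to 1.10 for Tdrd7, 0.36 to 0.97 for Mov10l1, 0.17 to 0.56 for Tdrkh, -0.24 to -1.17 for Tdrd5, -0.81 to -2.64 for Prdm1 and -1.29 to -2.66 for Stra8.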

Other observations

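Other genes that share a name family or a role with the listed genes were looked up after the values were seen. Gtsf1l, a paralog of the PIWI cofactor Gtsf1, was at 1197 and 1011 in wildtype and at 435 and 280 in SOCS3-null samples (change -1.61, limma adjusted p = 0.0245). Ooep, a maternal-effect gene of the oocyte's subcortical complex, fell from 1652 and 1431 to 809 and 599 (change -1.13, limma adjusted p = 0.0278). Of 16 further tested genes with a Tex symbol 3 rose (Tex12, Tex261 and Tex264) and 1 fell (Tex9). Of these, Tex12 passed the filter only through the SOCS3-null arrays. Of 6 tested Mage genes Maged2 alone rose, from 132 and 137 to 208 and 227 (limma adjusted p = 0.0208). Over all genes tested 22.7% were called, 13.1% higher and 9.55% lower, and the families were not tested as sets. Tex264, which encodes a receptor for autophagy of the endoplasmic reticulum despite its testis name, rose by 1.41 from 140 and 139 to 393 and 400. Of 4 further Pramel genes tested and of Rhox13, the other Rhox gene tested, limma called 0.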
